A study of Phormium tenax with 2 samples.

Results

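Leaves of Phormium tenax (New Zealand flax) contained 24 groups of assembled transcripts in which 1 unigene was more abundant under drought and another of the same group was less abundant. A unigene is a cluster of assembled transcripts that stands in for a gene. The assembler, Trinity, gives unigenes that it built from 1 connected set of overlapping read fragments the same component number, so that c54571.graph_c0 and c54571.graph_c1 are siblings of component c54571. The members described here are 50 of the 75265 unigenes, 24 that were higher in the drought library and 26 that were lower, and they belong to 24 of 71228 components.

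Leaf blade RNA was sequenced from 1 library per condition. Soil water stayed at 70% of saturation throughout for the control library (T02). For the drought library (T01) watering was stopped until the soil had dried to 25%. Leaves of both were taken after 10 further days, with the drought soil held at 25%. Each library pools equal amounts of RNA from 3 plants aged 1 year, which leaves the spread between plants unmeasured. Fewer cells of a type and less RNA per cell cannot be told apart in such leaf RNA. Estimated reads numbered 17744082 in drought and 18540627 in control, and CPM is a unigene's count divided by this sum and multiplied by 1000000.

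The members were chosen from the drought over control CPM ratio itself. A unigene was kept when it had at least 100 reads over both libraries and at least 10 in each, which 16166 unigenes did. Of the kept unigenes of a component, those at a ratio of 2 or more and those at 0.5 or less were taken as members, provided that the component held both kinds. The CPM ratios, FPKM values and their shares are therefore a description of the members, without a test. Intervals given with a log2 ratio are at the 95% level and come from the exact binomial (Clopper-Pearson) limits of the share of reads found in drought. They cover counting error only and compare these libraries, and reads that are PCR copies are taken as separate.

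In a plant, a Trinity component can hold copies of a duplicated gene, alleles, splice forms or separate pieces of 1 transcript, and the assembler does not tell these apart. Duplicated genes are common in plant genomes. Related copies can keep similar proteins while their promoters answer differently to abscisic acid, to jasmonate or to light, and a stress can then change which copy supplies most of the mRNA. Alternative splicing and alternative ends of transcripts are also known to change in leaves that lose water.

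Only the WRKY unigene c54571.graph_c1 of the 50 members is named in the sources used here. WRKY proteins are plant transcription factors that bind DNA through a domain with a conserved WRKY amino acid motif, and many of them act in defence and in the response to water deficit. The oligonucleotides designed to measure c54571.graph_c1 by quantitative PCR are shown because they are the sequences tied to a member in the sources used here, written 5′ to 3′.
forward primer: cgtcacctctgattatggctc
reverse primer: ccacctttatcctcttcagctc
Their position on the transcripts and whether they also match the sibling c54571.graph_c0 were not tested, since the assembled sequences were not used here. The study ran this PCR with biological replicates and reports fold changes close to those of its sequencing. The PCR values were not used here.

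The named WRKY unigene c54571.graph_c1 had 98 control reads and 1813 drought reads, or 7.88 and 115 FPKM (a level scaled for length and library size). Its log2 ratio was 4.27 (interval 3.98 to 4.58), a 19.3-fold higher CPM in drought. Its sibling c54571.graph_c0, to which the sources give no name, had 337 drought reads and 801 control reads and a log2 ratio of -1.19 (interval -1.37 to -1.00). The sibling c54571.graph_c0 was the more abundant of both in control leaves, at 86.9 FPKM, and in drought leaves it reached 38.1 FPKM, below the named unigene. Of the 62 unigenes that the study names by their identifier, 48 were kept and 9 of these lay in a component with another kept unigene, and c54571.graph_c1 was the only member among them.

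Opposite siblings were a small part of the components. Of the 1389 components with 2 or more kept unigenes, 24 met the rule (1.73%). In 173 components (12.5%) at least 2 unigenes had a ratio of 2 or more and none had 0.5 or less, and in 51 (3.67%) the reverse held. No unigene passed either ratio in 761 components (54.8%), and a single unigene passed one in 380 (27.4%). Over all kept unigenes, 20.2% had a ratio of 2 or more and 10.1% a ratio of 0.5 or less, and their median log2 ratio was 0.20. Among the 2958 kept unigenes of these 1389 components the shares were 22.3% and 8.05%.

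**Figure D1:**
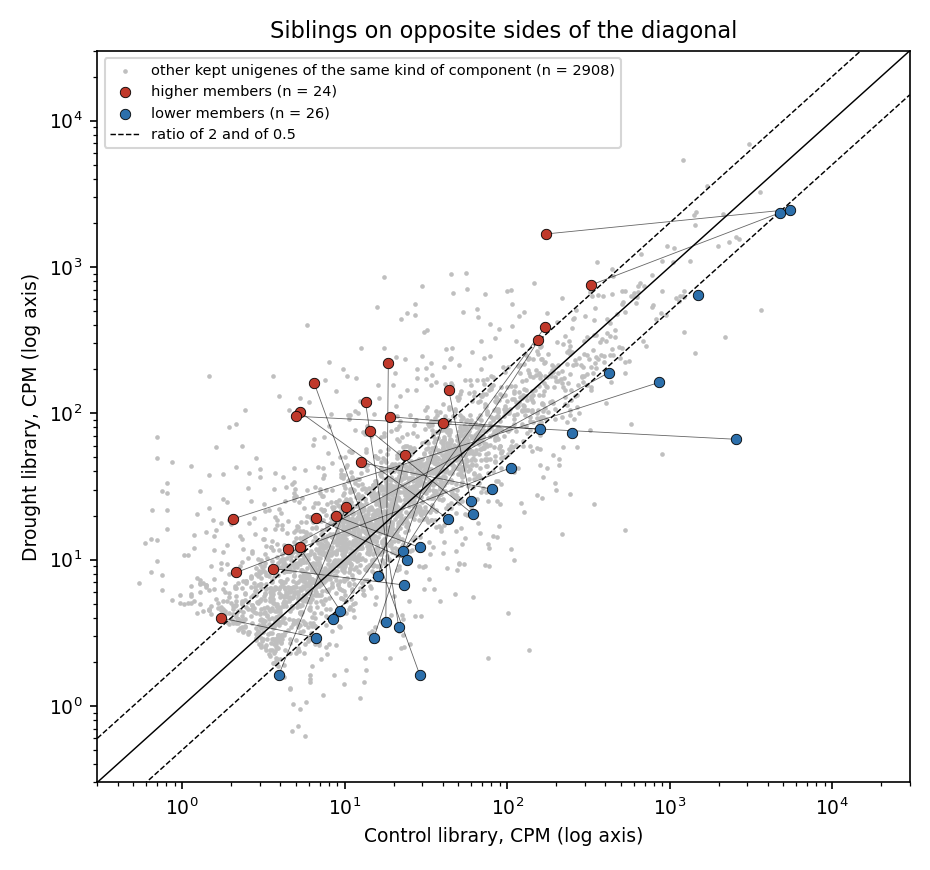
Control CPM (x, log axis) against drought CPM (y, log axis) of kept unigenes in components with 2 or more kept unigenes. The 24 higher members (red) lie above the upper broken line, the 26 lower members (blue) below the lower one, and thin lines join the strongest higher and the strongest lower member of each component, across the 2908 other unigenes (grey).

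The members covered a wide range of abundance. They had between 102 and 145025 reads over both libraries, 28 of them at least 1000, and their control FPKM ran from 1.78 to 5088. The log2 ratio of the higher members ran from 1.02 to 4.65, with a median of 1.62, and that of the lower members from -5.26 to -1.01, with a median of -1.27. A log2 ratio of at least 2 was reached by 9 higher members and one of at most -2 by 6 lower members. Counting error alone left 14 components in which a higher member had its whole interval at a ratio of 2 or more and a lower member its whole interval at 0.5 or less. Such an interval was found for 16 of the 24 higher members (66.7%) and 19 of the 26 lower members (73.1%). Of all kept unigenes 14.4% and 7.42% had one, and of those that passed the same ratio 71.0% and 73.6% did, so the members' shares were near those of all kept unigenes past the ratio.

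Component c57970 had the widest gap between siblings. Its unigene c57970.graph_c0 took the 49th place by FPKM in the control library, with 47157 reads and 1402 FPKM, and had 1178 reads and 36.4 FPKM in drought. This is a log2 ratio of -5.26 (interval -5.34 to -5.18), or 38.3-fold lower. The sibling c57970.graph_c2 had 93 control reads and 1693 drought reads, with a log2 ratio of 4.25 (interval 3.95 to 4.57). The other sibling, c57970.graph_c1, was lower as well, with 27821 control reads and 11388 drought reads (log2 ratio -1.23, interval -1.26 to -1.19), and it was the most abundant of the 3 per length in both libraries, at 2477 and 1034 FPKM. The higher and the lowest sibling differed by 9.51 on the log2 scale (95% interval 9.20 to 9.82), and such a difference does not depend on how the libraries are scaled to each other. This interval too covers counting error only. All 3 siblings had estimated counts that are not whole numbers in both libraries. Error in dividing reads among unigenes is outside the interval.

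Component c63010 also had 3 members. The higher one, c63010.graph_c1, had 120 control reads and 2878 drought reads, a log2 ratio of 4.65 (interval 4.38 to 4.92), which is the highest of all members. In c63010.graph_c2 there were 537 control reads and 29 drought reads (log2 ratio -4.15, interval -4.74 to -3.61), and in c63010.graph_c0 4638 and 1291 (log2 ratio -1.78, interval -1.87 to -1.69). The leading unigene by FPKM was c63010.graph_c0 in control leaves, at 246 against 4.66 for c63010.graph_c1, and c63010.graph_c1 in drought leaves, at 121 against 70.2. The 3 members are all the unigenes of this component, so its summed CPM ratio of 0.83 joins the opposite changes that the rule requires. This sum is lower with the other scalings given below.

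With a ratio of 4 or more in 1 sibling and 0.25 or less in another, 3 further components joined c57970 and c63010. In c55674 the unigene c55674.graph_c0 had 344 control reads and 3909 drought reads (log2 ratio 3.57, interval 3.41 to 3.73), while c55674.graph_c1 had 332 and 66 (log2 ratio -2.27, interval -2.67 to -1.88). Per length, c55674.graph_c1 was the higher of both in control leaves, at 30.0 against 19.2 FPKM, and in drought leaves it was at 4.28 against 224. In c56992 the reads of c56992.graph_c1 were 249 and 2107 (log2 ratio 3.14, interval 2.95 to 3.34) and those of c56992.graph_c0 399 and 61 (log2 ratio -2.65, interval -3.06 to -2.25). The siblings of c56418 had unequal abundance. The lower one, c56418.graph_c1, took 15919 control reads and 2880 drought reads (log2 ratio -2.40, interval -2.46 to -2.35), and the higher one, c56418.graph_c0, 38 and 336 (log2 ratio 3.21, interval 2.72 to 3.73), and c56418.graph_c1 had the higher FPKM in both libraries (1009 against 1.78 in control and 212 against 16.4 in drought).

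Components c56931 and c59095 held the members with the most reads over both libraries, c56931.graph_c0 and c59095.graph_c2. In control leaves c56931.graph_c0 was the unigene with the 5th highest FPKM of all, at 5088, from 101292 reads, and in drought leaves it had 43734 reads and 2219 FPKM (log2 ratio -1.15, interval -1.16 to -1.13). Its sibling c56931.graph_c2 had 3227 control reads and 29813 drought reads (log2 ratio 3.27, interval 3.22 to 3.32) and went from 235 to 2267 FPKM, from the 470th to the 18th place. The siblings that had differed so widely in control leaves were thus at similar FPKM in drought leaves. In c59095, c59095.graph_c2 had 88321 control and 41596 drought reads (log2 ratio -1.02, interval -1.04 to -1.01) and c59095.graph_c1 6095 and 13364 (log2 ratio 1.20, interval 1.15 to 1.24). The other sibling of that component, c59095.graph_c0, moved past neither ratio, with 2778 FPKM in control and 2661 in drought leaves.

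**Figure D2:**
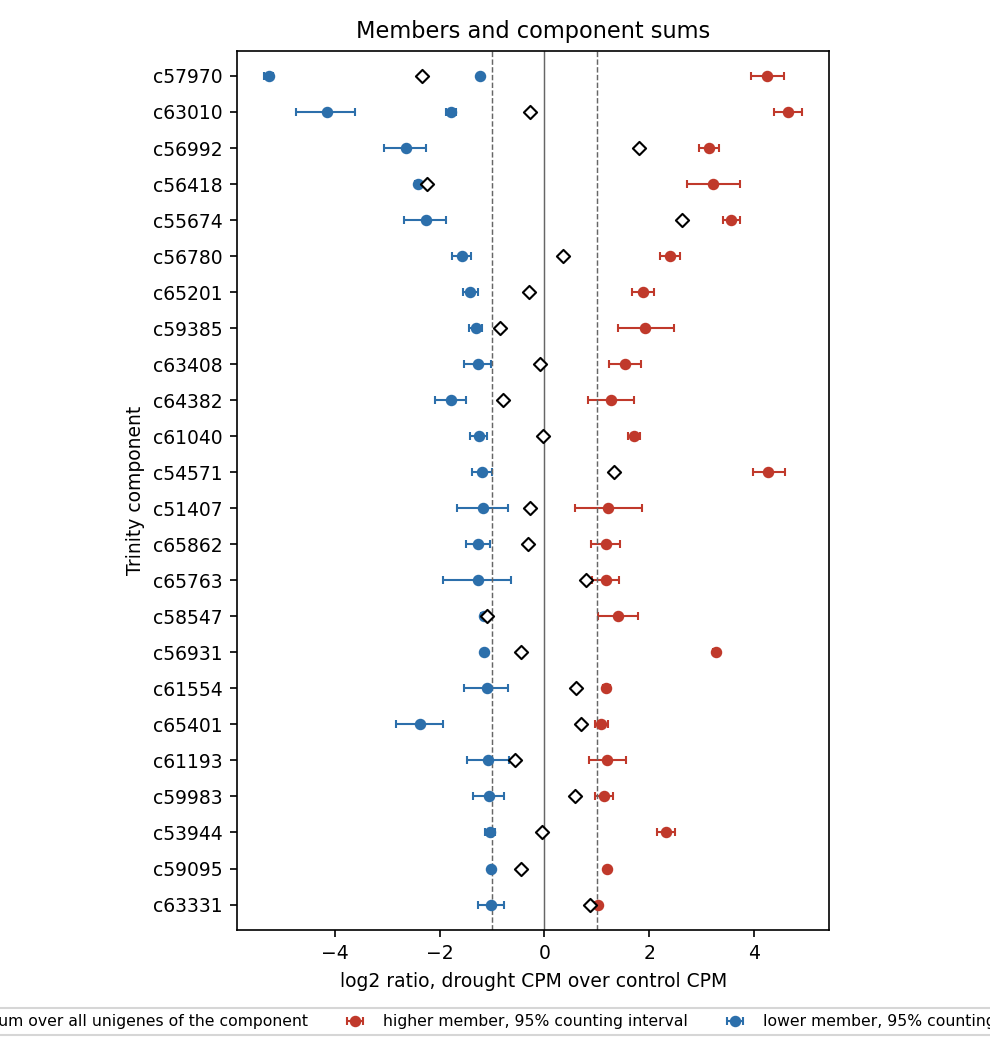
Log2 ratio of drought over control CPM (x) of the 50 members by component (y, ordered by the smaller of both distances from 0), with 95% counting intervals as bars and the summed reads of all unigenes of a component as open diamonds. Broken lines mark log2 ratios of 1 and -1, and 18 of the 24 diamonds lie between them.

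Components c53944 and c56780 had read numbers of intermediate size. The short unigene c53944.graph_c2 (258 bp) had 352 control reads and 1681 drought reads (log2 ratio 2.32, interval 2.15 to 2.49), and c53944.graph_c1 had 2963 and 1377 (log2 ratio -1.04, interval -1.14 to -0.95). In c56780.graph_c1 the reads were 266 and 1345 (log2 ratio 2.40, interval 2.21 to 2.60), and in c56780.graph_c0 1138 and 364 (log2 ratio -1.58, interval -1.76 to -1.41). The siblings of c65201 exchanged places per length, from 15.60 to 57.39 FPKM in c65201.graph_c1 and from 43.96 to 18.13 in c65201.graph_c0. Their reads were 232 in control and 818 in drought (log2 ratio 1.88, interval 1.67 to 2.10) and 1493 and 537 (log2 ratio -1.41, interval -1.56 to -1.27). In c61040 the reads of c61040.graph_c2 were 811 and 2548 (log2 ratio 1.71, interval 1.60 to 1.83) and those of c61040.graph_c0 1106 and 444 (log2 ratio -1.25, interval -1.42 to -1.09). The siblings of c63408 had fewer reads and the unigene with the most assembled transcripts of all members, c63408.graph_c1 with 36. It had 446 control reads and 177 drought reads (log2 ratio -1.27, interval -1.53 to -1.02), beside 123 and 340 of c63408.graph_c0 (log2 ratio 1.53, interval 1.23 to 1.84). In c58547 the lower unigene c58547.graph_c1 was the abundant one, with 7829 control reads and 3365 drought reads (log2 ratio -1.15), beside 83 and 210 of c58547.graph_c0 (log2 ratio 1.40, interval 1.03 to 1.79). The intervals of both siblings lay past the thresholds in all of these components except c53944, where that of c53944.graph_c1 includes -1.

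Component c59385 depended on the unit. By CPM c59385.graph_c0 was higher (40 control and 145 drought reads, log2 ratio 1.92, interval 1.41 to 2.46) and c59385.graph_c2 lower (1951 and 752 reads, log2 ratio -1.31, interval -1.44 to -1.19). The mean transcript length of c59385.graph_c2 was 1491 bp in the control table and 1054 bp in the drought table. Its FPKM, which is scaled by an effective length, had a log2 ratio of only -0.78. The component did not meet the rule with FPKM or with TPM ratios.

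The remaining 9 components lay close to the thresholds or rested on few reads. Their higher members had log2 ratios between 1.02 and 1.26. The lower members ran from -1.01 to -1.27 except c64382.graph_c0, with 429 control reads and 119 drought reads (log2 ratio -1.79), and c65401.graph_c1, with 281 and 52 (log2 ratio -2.37, interval -2.83 to -1.94). Fewest reads were behind c65763.graph_c0 (73 control and 29 drought reads) and c51407.graph_c1 (32 and 71), whose intervals came as near to 0 as -0.63 and 0.59. Their siblings c65763.graph_c1 (189 and 406 reads, log2 ratio 1.17) and c51407.graph_c0 (123 and 52 reads, log2 ratio -1.18) lay on the other side. In c64382 the higher member c64382.graph_c1 had 67 control reads and 154 drought reads (log2 ratio 1.26, interval 0.84 to 1.70). In c59983 the reads of c59983.graph_c1 were 439 and 922 (log2 ratio 1.14) and those of c59983.graph_c0 299 and 137 (log2 ratio -1.06). For c61193 there were 98 control and 215 drought reads of c61193.graph_c2 (log2 ratio 1.20) and 174 and 79 of c61193.graph_c1 (log2 ratio -1.08). For c65862 there were 163 and 351 of c65862.graph_c1 (log2 ratio 1.17) and 538 and 215 of c65862.graph_c0 (log2 ratio -1.26, interval -1.49 to -1.03). The abundant c61554.graph_c0 had 3167 and 6884 reads (log2 ratio 1.18, interval 1.12 to 1.24), and the minor unigene c61554.graph_c3 157 and 70 (log2 ratio -1.10, interval -1.53 to -0.69).

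Nearest to the thresholds were both members of c63331. The unigene c63331.graph_c0 had 2888 control reads and 5597 drought reads, a CPM ratio of 2.03, and c63331.graph_c1 had 425 and 202, a ratio of 0.497. Component c63331 did not meet the rule with FPKM or TPM ratios, and c51407 did not with TPM ratios. The next members were c65401.graph_c2 with a ratio of 2.12 and c59095.graph_c2 with 0.492. Just outside stood c63133.graph_c1 with a ratio of 1.99, whose sibling c63133.graph_c0 had 6384 control reads and 425 drought reads (ratio 0.0696), and c63600.graph_c0 with 0.504, whose sibling c63600.graph_c1 had a ratio of 3.81. The interval of c63133.graph_c1 (a ratio of 1.84 to 2.17) includes 2 and that of c63600.graph_c0 (0.479 to 0.530) includes 0.5, so their side of the threshold was not detectable at this depth.

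The 24 components held 63 unigenes, of which 58 were kept, and 8 kept siblings were not members. Their log2 ratios ran from -0.81 in c61040.graph_c3 to 0.82 in c65862.graph_c3, with 5 below 0 and 3 above. Some were more abundant than the members beside them. The unigene c61554.graph_c1 had 3928 FPKM in control and 6279 in drought leaves, far above both members of its component, and c61040.graph_c3 had 267 and 202 FPKM. The 5 siblings that were not kept had at most 98 reads over both libraries.

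Levels per length show which sibling led a component in each library, which need not mean that it held most of the FPKM or of the reads. The kept unigene with the highest FPKM differed between the libraries in 14 of the 24 components, and in 13 of these it was a lower member in control leaves and a higher member in drought leaves. Over all 1389 components with 2 or more kept unigenes the leading unigene differed in 315 (22.7%), and since the rule uses the same contrast nothing is read from this difference. In the other 10 components the leader was a higher member in 2, a lower member in 4 and a sibling that was no member in 4. Some leads were narrow or hold only per length. In c56931 the drought leader c56931.graph_c2 was at 2267 against 2219 FPKM, with fewer reads than c56931.graph_c0 (29813 against 43734). In c65862 the control leader c65862.graph_c0 held 42.9% of the kept FPKM. Leaders by reads were not counted. The lower members together held a median of 65.8% of the kept FPKM of their component in control leaves and 22.8% in drought leaves. The share went from 60.9% to 1.88% in c55674 and from 68.7% to 3.81% in c56992. In c56418 it stayed high, at 99.8% and 92.8%.

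**Figure D3:**
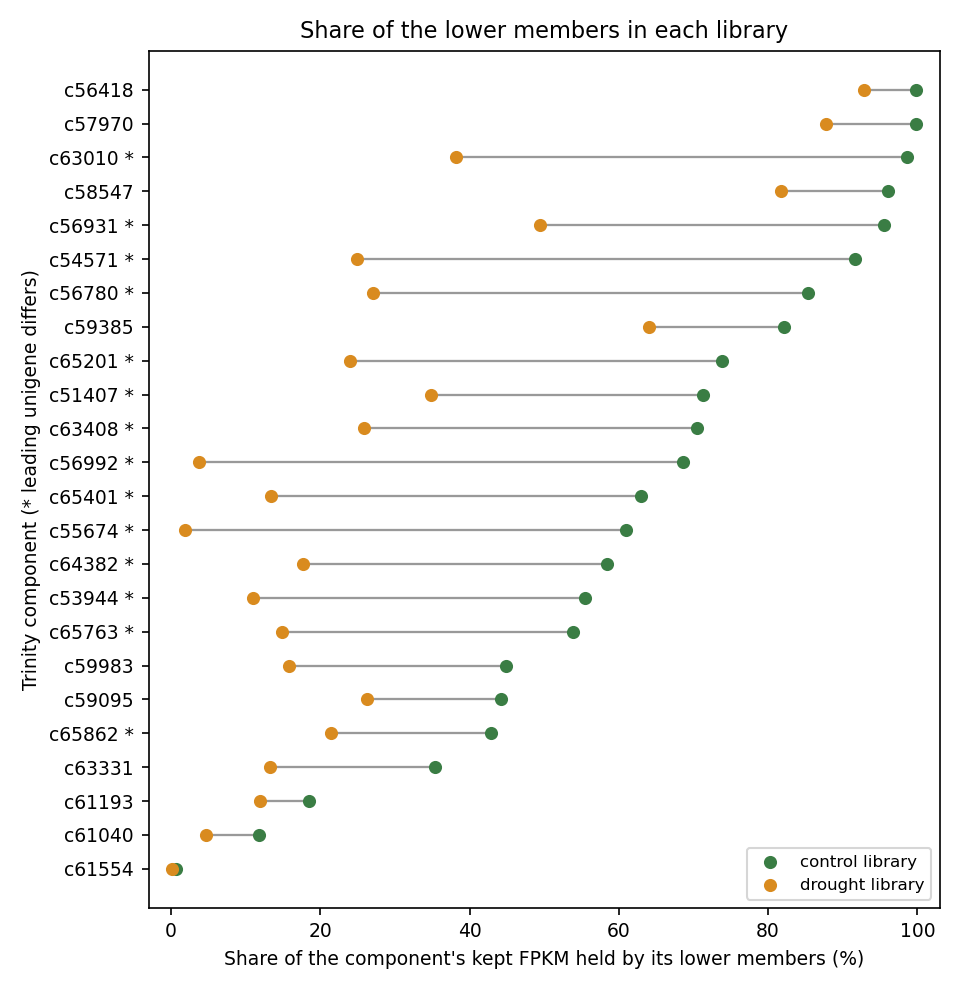
Share of the FPKM of a component's kept unigenes that its lower members held (x, percent) in the control library (green) and in the drought library (orange), by component (y). An asterisk marks the 14 components whose leading unigene differed between libraries. The drought point lies to the left of the control point in all 24, and nothing is read from this because the rule requires opposite changes of CPM, a related unit.

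Summed over all unigenes of a component, the CPM ratio lay between 0.5 and 2 in 18 of the 24 components (75%), at 2 or more in 3 and at 0.5 or less in 3, with a median log2 ratio of -0.17. The share between 0.5 and 2 is near that of all 1389 components with 2 or more kept unigenes (1028, or 74.0%), and the rule requires opposite siblings within each sum, so nothing is read from it. By CPM, c61040, c53944 and c63408 were closest to no change (log2 ratios -0.04, -0.05 and -0.08). The reads of c61040 were 5002 in control and 4672 in drought in all. The other scalings given below shift every summed log2 ratio by -0.287 to -0.501. With them c56780 (log2 ratio 0.35 by CPM) lies nearer to 0 than these components. How many sums lie between 0.5 and 2 was counted by CPM only. At the ends stood c57970 with a summed log2 ratio of -2.33 and c55674 with 2.62. A table counted by component rather than by unigene would thus hold the WRKY component c54571 at a log2 ratio of 1.32, beside 4.27 for its named unigene.

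The members were about as long as other unigenes. Their median length was 955 bp (926 bp for the higher and 1003 bp for the lower members), beside 972 bp for the 2908 other kept unigenes of components with 2 or more kept. The length used is the larger of both tables. Of the members, 13 (26.0%) held 1 transcript, beside 27.9% of the others, and the median number of transcripts was 4 and 3. The length given for a unigene of several transcripts can differ between the tables and was read here as a mean weighted by the transcripts' abundance, a reading that no source states. It differed by over 10% (of the smaller value) between the libraries in 14 of the 37 members with several transcripts (37.8%), beside 453 of 2097 others (21.6%). Among them was c55674.graph_c1, from 674 bp in the control table to 945 bp in the drought table, and the WRKY unigene c54571.graph_c1 went from 748 to 966 bp. The lengths come from the same contrast as the rule, so these shares are a description.

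Most members had estimated counts that are not whole numbers (tolerance 0.005). Such counts can arise where a quantifier divides a read among several unigenes. Of the 50 members 11 had whole counts in both libraries (22.0%), beside 34.4% of the other kept unigenes of such components. The members also had more reads, with a median of 1432 over both libraries beside 716, so these shares are not compared at equal depth. In 10 components of the drought table and 12 of the control table several siblings had fractional counts, and in none of them did the fractions add up to a whole number. A single sibling had a fractional count in 10 components of the drought table and 11 of the control table, and no sibling had one in 4 and 1. No component had both a higher and a lower member with whole counts in both tables, but only 238 of the 1389 components had 2 or more kept unigenes with such counts, so few could have. How many reads were concerned cannot be read from the fractions, and their part in the opposite changes was not tested.

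Which components met the rule depended on the scaling between libraries. Relative to column sums, every log2 ratio shifted by -0.287 with edgeR's TMM factors, by -0.319 with DESeq2's median-of-ratios factors and by -0.501 with upper-quartile factors. Under TMM 25 components met the rule, 14 of them among the 24 described here and 11 others, and all 10 that were lost had no higher member left at a ratio of 2. The components that met the rule under all 3 other scalings numbered 13 (c53944, c54571, c55674, c56418, c56780, c56931, c56992, c57970, c59385, c61040, c63010, c63408 and c65201). Component c59095, which has some of the most reads and both intervals past the ratios by CPM, met the rule under none of the 3. Its higher member c59095.graph_c1 had log2 ratios of 0.91 with TMM, 0.88 with median-of-ratios and 0.69 with upper-quartile factors. Every member kept its direction under each scaling, which follows from the size of the shifts. The log2 ratio of c54571.graph_c1 was 3.77 and that of c54571.graph_c0 -1.69 with upper-quartile factors.

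**Figure D4:**
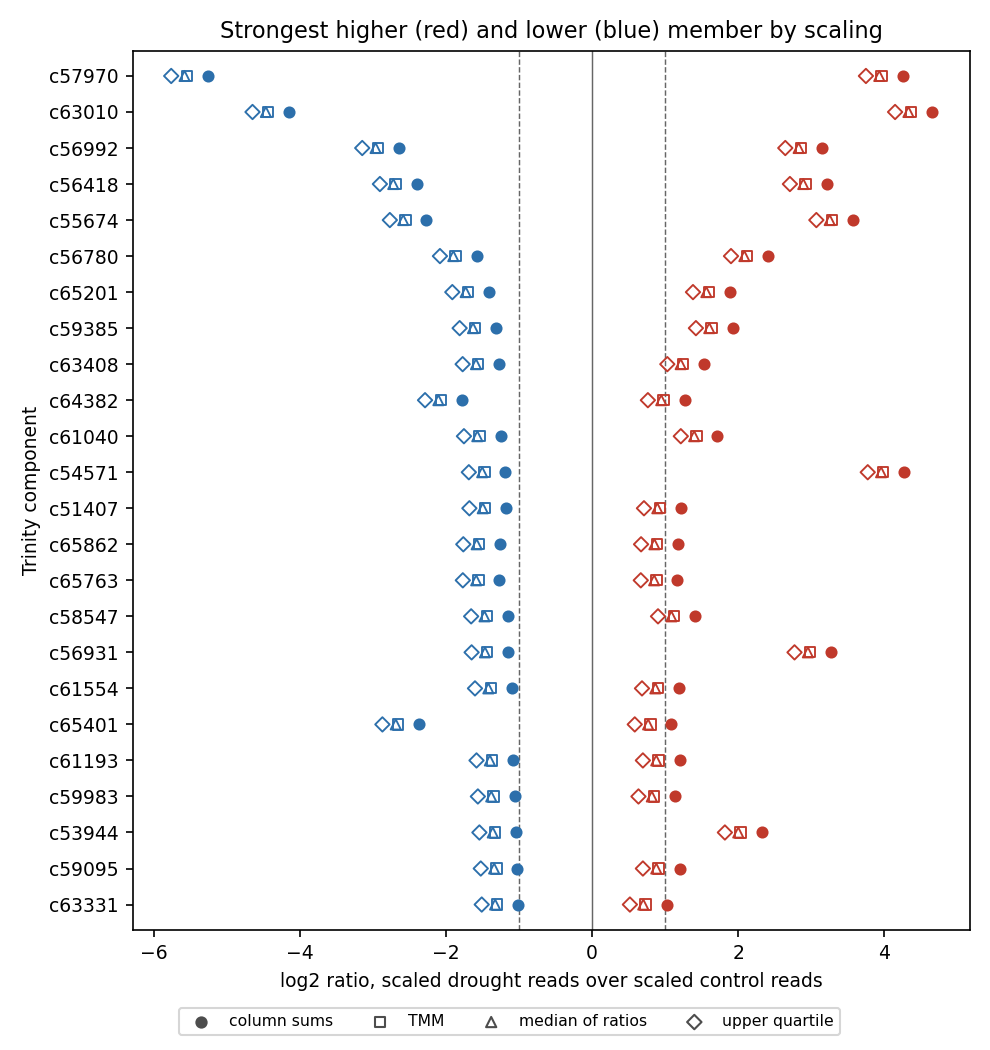
Log2 ratio of drought over control reads (x) of the strongest higher (red) and the strongest lower member (blue) of the 24 components (y) with 4 scalings of the libraries, column sums as filled circles. Broken lines mark log2 ratios of 1 and -1, and the other scalings move all points to the left, which brings the red points of 11 components inside the line under at least 1 scaling.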

How the data were processed

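The authors filtered the reads of 1 drought and 1 control library, assembled them together with Trinity and deposited a table of unigenes for each. The authors' expected counts are estimated reads per unigene without normalization. Their deposited FPKM values are scaled by effective length and by library size, and their deposited TPM values by length first. The sources do not say which aligner and quantifier made the deposited values. The submitters' processing notes name Bowtie 0.12.2, Cufflinks and the mouse build mm8, with no role.

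CPM, ratios, and Clopper-Pearson intervals of rounded counts were computed with SciPy 1.17.1, pandas 2.3.3 and NumPy 2.4.6 in Python 3.11.15, scaling factors with edgeR 4.0.16 and DESeq2 1.42.0 in R 4.3.3 from rounded counts, and Woolf intervals for differences between siblings. The script that applies the rule was run on simulated counts with known opposite pairs to check its code, which does not bear on the members themselves. With 1 library per group no test was possible and no p-value is given, and EBSeq, which the authors used, was not run. Figures were drawn with matplotlib 3.10.9.

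The members and lists were chosen with earlier results of these data known. A rule set which unigenes to name: members that the study names, the strongest members of the 8 components with the largest opposition (the smaller distance of both from 0), of the 5 with most reads and of the 3 with the smallest summed change, all members of the 3 components with most members, and those nearest to a threshold. It gave 34 of the 50 members, and the others are named to account for every component. Alternatives were other scalings, units, minimum reads, folds and lengths. Annotation and enrichments were not analysed here.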

Additional observations from a re-analysis of the deposited data

How the results depend on the processing

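No paired analysis was possible because each condition has 1 library, and no replicate could be left out. The counts of components (24), members (50), components with both intervals past the fold (14) and components with another leading unigene (14) stayed within 1.5 times with TMM, median-of-ratios, FPKM and TPM values and with unigenes of at least 300 bp, though a count does not say that the components were shared. Upper-quartile factors gave 32 components and 68 members, and 23 with another leader. With at least 1 read in each library and no minimum total the counts were 91, 190, 23 and 50, and with at least 500 reads in all and 50 in each 11, 23, 8 and 7. A fold of 4 gave 5, 10, 4 and 3, and a fold of 1.5 gave 75, 163, 44 and 34. Restricted to whole counts in both tables, which 11 members have, all 4 counts were 0. The intervals were not computed for FPKM and TPM ratios, which are no counts. The log2 ratios of the 34 members named by rule gave 170 values under other scalings and units, of which 59 lay within the counting interval, 111 outside it in the same direction and 0 reversed.

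In 8 higher and 7 lower members the counting interval includes the threshold, some with few reads and some with over 1000 reads that lie near it (c63331.graph_c0, c53944.graph_c1, c65401.graph_c2 and c59983.graph_c1). Variation between plants was not measured in these libraries and adds to these intervals.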
